A study of Rattus norvegicus with 10 samples.

Results

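Growth hormone reaches the liver through the receptor encoded by Ghr, which activates the kinase JAK2 and the transcription factor STAT5B. STAT5B switches on Igf1, which encodes the circulating growth factor IGF-I, and Igfals, which encodes the acid-labile subunit that holds IGF-I in blood together with IGF binding protein 3. It also switches on Socs2 and Cish, whose products damp the signal, while Bcl6 encodes a repressor that can occupy STAT5 sites. Igfbp1 and Igfbp2 encode smaller IGF carriers of the liver, and Igfbp1 is known to rise in fasting and to be held down by insulin. The 10 genes Ghr, Igf1, Igfals, Igfbp1, Igfbp2, Igfbp3, Socs2, Cish, Stat5b and Bcl6 were taken by their symbols in the array annotation. They were measured by 15 of the 31042 probe sets tested, with 3 probe sets for Igf1 and a pair each for Ghr, Igfbp3 and Cish.

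The study measured liver RNA of 10 Harlan Sprague Dawley rats, with a single Affymetrix rat genome array for each. In the HMB group 5 rats were fed HMB (2-hydroxy-4-methoxybenzophenone, the sunscreen filter oxybenzone) at 10000 ppm in NTP-2000 diet for 13 weeks, and in the Control group 5 rats were fed 0 ppm. HMB 1 had an HMB title and chemical label but a dose label of 0 ppm, and was kept in the HMB group. The labels gave no age or sex, rats were housed 5 per cage, and no label ties an animal to a cage, so the part of the cage was not tested. Values are log2 signals made by RMA, a procedure that adjusts background, normalizes arrays to each other and gives 1 value per probe set. A difference of 1 is thus a factor of 2. Levels of different probe sets are not set against each other, since each has its own binding strength.

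Measures of the whole arrays bear on some of the results. Hepatocyte markers were bright on all arrays (Alb, serum albumin, between 14.49 and 14.64 in HMB and between 14.59 and 14.64 in Control). No array stood apart in sex-linked transcripts: the Y-linked Uty lay between 7.56 and 8.02 in HMB and between 7.61 and 7.98 in Control, and Xist between 2.48 and 2.69 in HMB and between 2.20 and 2.70 in Control. The 3' minus 5' signal of GAPDH, a measure of RNA integrity and labelling, was 1.97, 2.09 and 1.90 in HMB 3 to 5, 1.31 and 1.38 in HMB 1 and 2, and between 1.38 and 1.77 in Control. The same measure of beta-actin was 3.62, 3.96 and 3.58 in HMB 3 to 5 and 3.16 and 3.18 in HMB 1 and 2. In Control it lay between 3.25 and 3.64, so by beta-actin HMB 4 alone was above all controls. The signal of the added poly-A controls relative to the hybridisation controls lay between -1.96 and -1.47 in HMB and between -2.19 and -1.90 in Control, and with it as a covariate 0 of all probe sets passed. HMB 3 to 5 lay above all controls on this signal. In every fit with this covariate its part and that of HMB thus cannot be fully told apart. Pairs of arrays correlated between 0.987 and 0.995 across probe sets, which are not independent replicates, and no pair held identical values.

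Promoter sequence is shown for Cish and Igfbp1, since Cish varied most among control animals and Igfbp1 most among HMB animals of all 15 probe sets. RefSeq promoter windows of build GRCr8, running from 250 bases before to 50 bases after the gene start, were found for 9 of the 10 genes. The window of Cish lies at chr8:116850719-116851018 on the + strand, and capitals mark TTCNNNGAA, the palindromic STAT5 motif, which reads the same way on both strands. The window of Igfbp1 lies at chr14:86261027-86261326 on the + strand, and capitals mark CAAAACA, the core of the insulin response element of this promoter, searched on both strands and chosen after the window had been read.
Cish: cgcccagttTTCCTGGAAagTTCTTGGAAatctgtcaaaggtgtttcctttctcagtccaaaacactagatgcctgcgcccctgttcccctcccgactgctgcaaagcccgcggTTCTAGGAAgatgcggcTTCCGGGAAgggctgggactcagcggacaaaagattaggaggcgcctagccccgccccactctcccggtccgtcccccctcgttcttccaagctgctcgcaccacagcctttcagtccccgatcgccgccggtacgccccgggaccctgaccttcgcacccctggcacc
Igfbp1: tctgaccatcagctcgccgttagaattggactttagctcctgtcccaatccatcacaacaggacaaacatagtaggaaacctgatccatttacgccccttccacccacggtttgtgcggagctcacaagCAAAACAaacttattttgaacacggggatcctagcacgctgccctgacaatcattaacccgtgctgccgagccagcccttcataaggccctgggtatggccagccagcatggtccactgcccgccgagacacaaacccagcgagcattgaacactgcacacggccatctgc

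The Cish window held 4 matches to TTCNNNGAA, none overlapping another, which began 241, 230, 136 and 119 bases before the start. Of 33469 rat promoter windows of this length, 8.87% held at least 1 such match and 2 windows, or 0.00598%, held 4. The other 8 windows, among them those of Igf1 and Igfals, held neither this motif nor its wider form with 4 bases between TTC and GAA, which occurs in 7.28% of windows. CAAAACA occurred in 6.28% of windows, among them those of Igfbp1, 121 bases before the start, of Igf1 and of Cish. A match describes letters in a window, and binding was not measured.

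The comparison asked whether 13 weeks of HMB changed liver transcripts of this axis. Igf1 stood level between the groups, with a 95% interval from 0.892-fold to 1.11-fold on its brightest probe set. Bcl6 and Igfbp1 averaged more than 2-fold higher in HMB rats and Socs2 stood at 0.538-fold, but none of the 3 passed the test, and single animals within a group differed widely. In total 0 of the 15 probe sets changed (limma, Benjamini-Hochberg adjusted p under 0.05 over all probe sets), where 1.70% of all probe sets did (0.705% higher and 0.995% lower in HMB). That share itself moved with single animals: it was 5.33% without Control 1, 0.00% without Control 2, 4 or 5 or HMB 4, and 0.403% after cyclic loess of all animals. Unadjusted p was under 0.05 in 4 of the 15 (Socs2, Bcl6, Stat5b and Igfals), against 24.1% of all probe sets. In 0 of the 15 did the 5 HMB values and the 5 Control values stand apart without overlap, against 5.77% of all probe sets.

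**Figure D1:**
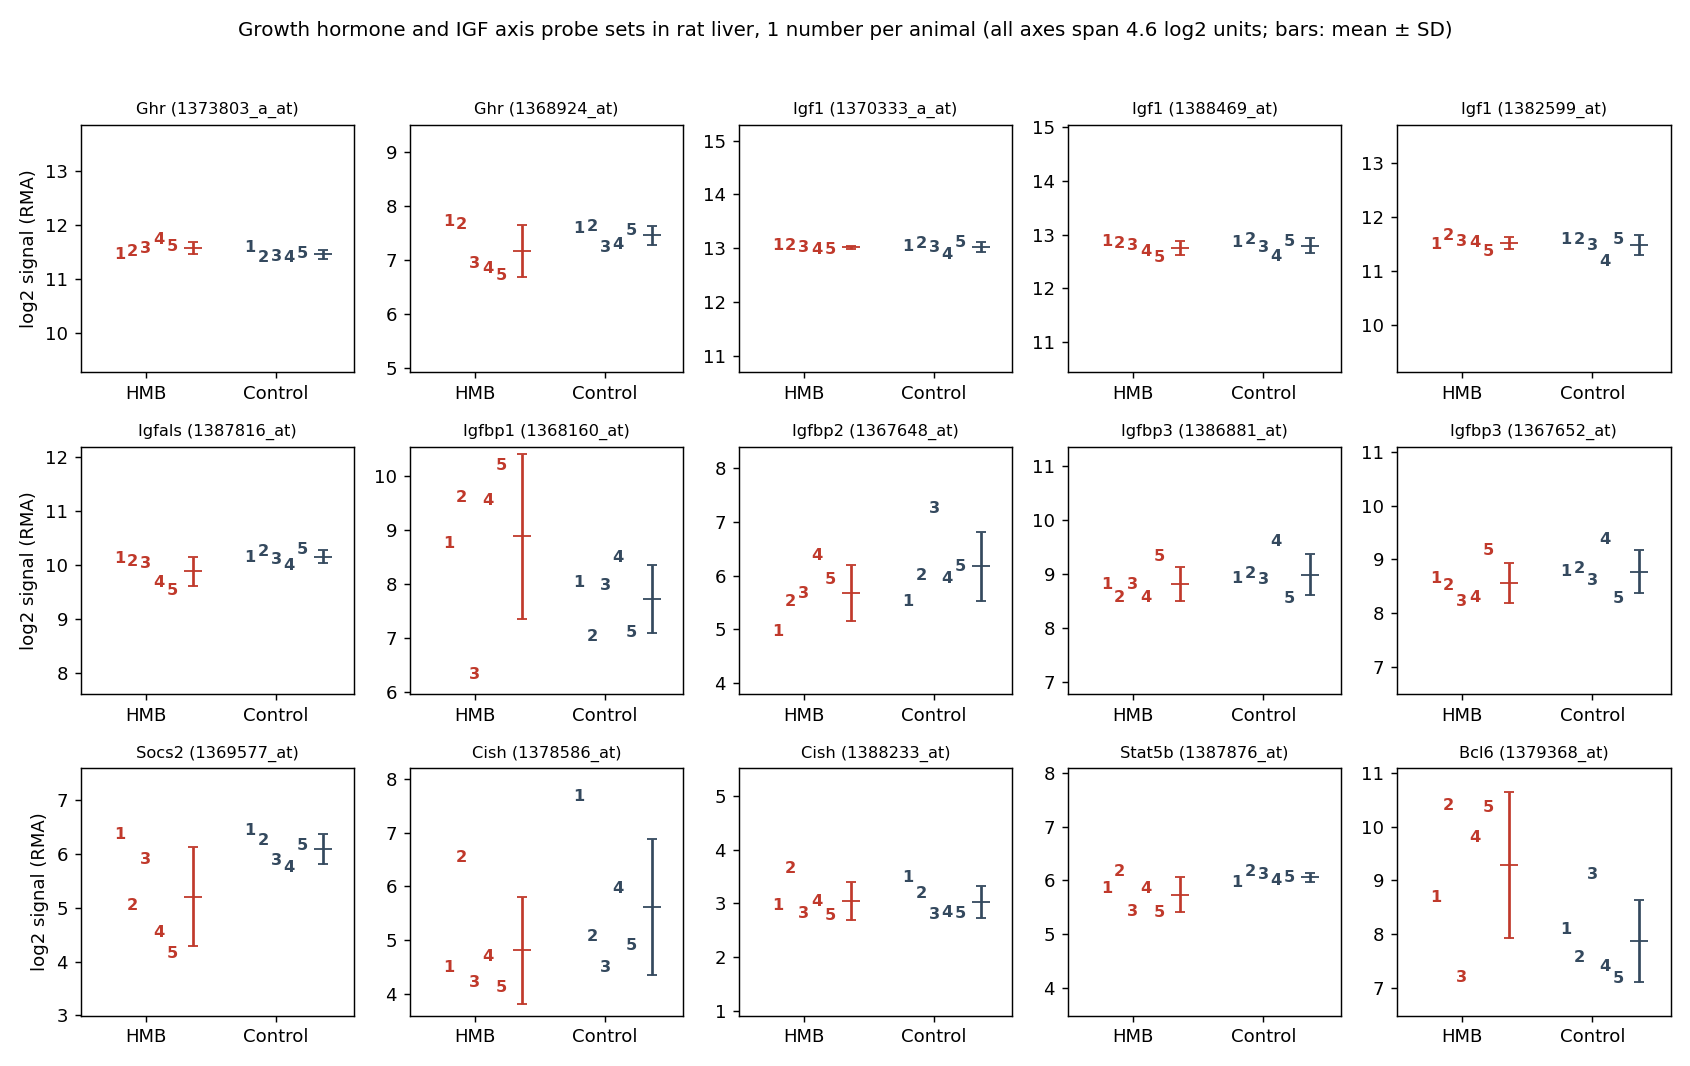
Log2 signal of the 15 probe sets in each rat liver, HMB animals left and Control animals right, each animal drawn as its replicate number, with the mean and SD of each group as bars beside them. All panels span the same number of log2 units: Igf1 hardly moves, while Igfbp1 runs between 6.31 and 10.20 and Bcl6 between 7.20 and 10.38 among HMB animals.

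The receptor gene Ghr had probe sets that went different ways. The brighter read 11.45, 11.50, 11.57, 11.74 and 11.60 in HMB 1 to 5, against 11.59, 11.39, 11.42, 11.41 and 11.48 in Control 1 to 5. HMB 4 and HMB 5 lay just above all controls, and the log2 difference was 0.11 ± 0.079 (SE, n = 5 each, adjusted p by limma = 0.389). The dimmer read 7.71, 7.67, 6.93, 6.84 and 6.71 in HMB 1 to 5, against 7.59, 7.62, 7.24, 7.28 and 7.55 in Control 1 to 5.

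HMB 1 and 2 thus lay above every control and HMB 3 to 5 below every control on that dimmer Ghr probe set, with a difference of -0.29 ± 0.19 (SE, n = 5 each, adjusted p by limma = 0.369). The same 3 animals had the highest GAPDH 3' minus 5' signals, while by beta-actin HMB 4 alone was above all controls. Across the 10 arrays, after removal of the group means, the dimmer Ghr signal ran against that measure with Pearson r = -0.95 and Spearman rho = -0.95 (exact two-sided permutation within groups, p = 0.005 and p = 0.00639). Adjusted over the 60 relations of the 15 probe sets to 4 array and cell measures, these were 0.195 and 0.157, and r was -0.70 without the 2 arrays farthest from the median Ghr value. The brighter Ghr probe set ran the other way, at r = 0.61 and rho = 0.71 (exact permutation p = 0.110 and p = 0.0881, adjusted 0.347 and 0.377). The Ghr probe sets ran against each other within groups, at r = -0.50 and rho = -0.72. With HMB 1 and 2 left out, the dimmer probe set was called lower in HMB, by -0.63 (limma adjusted p = 0.0217), in a setting in which 6.75% of all probe sets passed. HMB 1 and 2 had the highest HMB values, so leaving them out could only lower the difference, and leaving out HMB 3 to 5 could only raise it. The difference turned to 0.25 with a poly-A covariate and to 0.23 without HMB 3 to 5 (limma adjusted p of 0.565 and 0.567). The part of RNA integrity in these Ghr values was not tested.

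Stat5b, the main signal carrier behind the receptor in liver, read 5.85, 6.17, 5.42, 5.84 and 5.40 in HMB 1 to 5, against 5.96, 6.17, 6.11, 6.01 and 6.06 in Control 1 to 5. HMB 1, 3, 4 and 5 were below all controls and HMB 2 lay among them. The difference was -0.33 ± 0.13 (SE, n = 5 each, adjusted p by limma = 0.165). With HMB 1 and 2 left out, which had the highest HMB values here too, the difference was called, at -0.51 (limma adjusted p = 0.0345). It shrank to -0.0051 with the poly-A control signal as a covariate (limma adjusted p = 0.993) and to -0.055 without HMB 3 to 5 (limma adjusted p = 0.894).

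Of the secreted products, Igf1 was the steadiest. Its brightest probe set read 13.05, 13.04, 13.00, 12.98 and 12.98 in HMB 1 to 5, against 13.04, 13.09, 13.00, 12.88 and 13.10 in Control 1 to 5. All HMB values lay within the range of the controls, and the difference was -0.0086 ± 0.072 (SE, n = 5 each, adjusted p by limma = 0.953). Its 95% interval ran from -0.16 to 0.15, or from 0.892-fold to 1.11-fold. The other probe sets of Igf1 differed by -0.046 ± 0.090 (the middle in signal) and by 0.034 ± 0.097 (the dimmest), with limma adjusted p of 0.782 and 0.855. All 3 moved together from animal to animal, with r between 0.85 and 0.89 and rho between 0.54 and 0.95 over 10 arrays after removal of group means.

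Igfals read 10.12, 10.07, 10.03, 9.68 and 9.52 in HMB 1 to 5, against 10.15, 10.26, 10.10, 9.98 and 10.28 in Control 1 to 5. HMB 4 and 5 lay below all controls and the other HMB animals among them. The difference was -0.27 ± 0.12 (SE, n = 5 each, adjusted p by limma = 0.197), with a 95% interval from -0.53 to -0.0074. It was -0.069 with a poly-A covariate and -0.060 without HMB 3 to 5 (limma adjusted p of 0.883 and 0.876). With HMB 1 and 2 left out, which had the highest HMB values here too, it was -0.41 (limma adjusted p = 0.071). The HMB animals spread 2.20 times as widely as the controls by SD.

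Igfbp1 had the widest spread of the binding proteins. It read 8.76, 9.61, 6.31, 9.55 and 10.20 in HMB 1 to 5, against 8.03, 7.03, 7.98, 8.50 and 7.11 in Control 1 to 5. In HMB 1, 2, 4 and 5 it was above all controls, and in HMB 3 it was below all of them. The mean was 8.89 ± 1.53 in HMB and 7.73 ± 0.64 in Control (SD, n = 5 each), 1.16 ± 0.59 apart (SE, limma adjusted p = 0.241), and the 95% interval of the ratio ran from 0.929-fold to 5.37-fold. Without HMB 3 the difference was 1.80 and was called (limma adjusted p = 0.0372), in a setting in which 0.783% of all probe sets passed. HMB 3 had the lowest HMB value, so leaving it out could only raise the difference. Without HMB 1, 2, 4 or 5 the difference was 1.19, 0.98, 0.99 and 0.83 in turn (limma adjusted p of 0.260, 0.349, 0.396 and 0.440).

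Igfbp2 lay on the other side, at 4.95, 5.51, 5.66, 6.37 and 5.92 in HMB 1 to 5, against 5.51, 5.9998, 7.24, 5.94 and 6.17 in Control 1 to 5. The groups overlapped, with HMB 1 alone below all controls, and the difference was -0.49 ± 0.30 (SE, n = 5 each, adjusted p by limma = 0.325). It was -0.22 without Control 3, the highest control, and -0.11 with HMB 1 counted as a control (limma adjusted p of 0.604 and 0.871). The difference was -0.66 without Control 1 and -1.04 with a poly-A covariate (limma adjusted p of 0.177 and 0.311).

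Igfbp3 differed by -0.18 ± 0.19 on its brighter probe set and by -0.21 ± 0.20 on its dimmer (SE, n = 5 each, adjusted p by limma = 0.578 and 0.542). The brighter read 8.81, 8.56, 8.81, 8.56 and 9.32 in HMB 1 to 5, against 8.91, 9.003, 8.89, 9.60 and 8.54 in Control 1 to 5. Control 4 was highest and Control 5 lowest.

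In rat liver Igfbp3 is known as a product of the cells lining the sinusoids, and Igf1 of hepatocytes. The mean of 4 measured endothelial markers was 7.84, 8.02, 7.89, 7.39 and 8.11 in HMB 1 to 5, against 8.02, 7.76, 8.19, 8.57 and 7.23 in Control 1 to 5. Control 4 and Control 5 were again the highest and lowest controls. The mean of 6 Kupffer cell markers, from 7.44 to 8.11 in HMB and from 6.79 to 8.58 in Control, also had these 2 animals at its ends. The brighter Igfbp3 probe set ran with the endothelial mean at r = 0.78 and rho = 0.59, and with the Kupffer mean at r = 0.78 and rho = 0.81 (exact two-sided permutation within groups, p = 0.0224, 0.112, 0.0198 and 0.0158). Adjusted over the 60 relations these were 0.203, 0.395, 0.203 and 0.189, and without the 2 arrays farthest from the median Igfbp3 value r was 0.65 and 0.85. The dimmer probe set ran with the endothelial mean at r = 0.74 and rho = 0.62, and with the Kupffer mean at r = 0.65 and rho = 0.55. For the dimmer the exact permutation p was 0.0237, 0.0806, 0.056 and 0.136, adjusted 0.203, 0.377, 0.307 and 0.409. Without its 2 farthest arrays r was 0.58 and 0.52. In bulk tissue, fewer cells of a type and less RNA per cell cannot be told apart.

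Among the feedback inhibitors, Socs2 read 6.37, 5.05, 5.90, 4.55 and 4.16 in HMB 1 to 5, against 6.43, 6.25, 5.89, 5.75 and 6.16 in Control 1 to 5. HMB 2, 4 and 5 lay below all controls, and HMB 1 and 3 lay among them. The mean was 5.20 ± 0.92 in HMB and 6.10 ± 0.28 in Control (SD, n = 5 each), a difference of -0.89 ± 0.34 (SE, limma adjusted p = 0.145), or 0.538-fold with a 95% interval from 0.321-fold to 0.901-fold. The size of the difference moved both ways with the setting. It was -0.41 with a poly-A covariate, -0.39 without HMB 3 to 5 and -0.63 without HMB 5 (limma adjusted p of 0.747, 0.695 and 0.279). It passed in settings that took HMB 1, the animal with the conflicting dose label, out of the HMB group. Without HMB 1 the difference was -1.19 (limma adjusted p = 0.0468, with 3.21% of all probe sets passing), and with HMB 1 counted as a control the difference was -1.23 (limma adjusted p = 0.0451, with 1.71% of all probe sets passing).

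Cish swung most among controls. Its brighter probe set read 4.49, 6.54, 4.20, 4.70 and 4.12 in HMB 1 to 5, against 7.67, 5.07, 4.49, 5.96 and 4.89 in Control 1 to 5. HMB 2 and Control 1 were the highest of their groups, and also on the dimmer probe set, at 3.65 in HMB 2 and 3.47 in Control 1. The differences were -0.81 ± 0.57 for the brighter and 0.022 ± 0.18 for the dimmer (SE, n = 5 each, adjusted p by limma = 0.397 and 0.951). The brighter turned to 0.53 with a poly-A covariate (limma adjusted p = 0.76) and was -0.29 without Control 1 (limma adjusted p = 0.701). It was -1.24 without HMB 2 (limma adjusted p = 0.171). As these 2 animals were the highest of their groups, leaving out Control 1 could only raise the difference, and leaving out HMB 2 could only lower it. The dimmer averaged 3.04 in HMB and 3.02 in Control, a low level, and the sign of its difference turned with cyclic loess or quantile normalization.

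Bcl6, the repressor, had the largest difference of the 15. It read 8.68, 10.38, 7.20, 9.80 and 10.35 in HMB 1 to 5, against 8.08, 7.57, 9.11, 7.40 and 7.18 in Control 1 to 5. HMB 2, 4 and 5 lay above all controls, and HMB 3 was below all controls but Control 5. The mean was 9.28 ± 1.35 in HMB and 7.87 ± 0.77 in Control (SD, n = 5 each), 1.41 ± 0.55 apart (SE, limma adjusted p = 0.149), or 2.66-fold with a 95% interval from 1.16-fold to 6.08-fold. Across all settings tried, the adjusted p of Bcl6 ran from 0.0547 to 0.438.

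**Figure D2:**
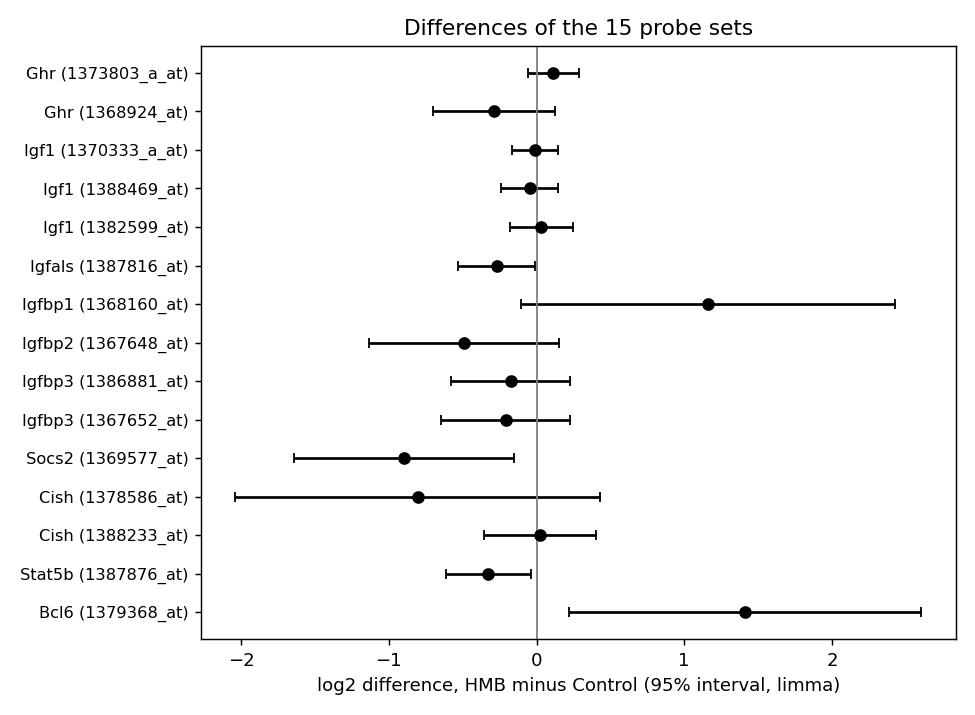
Log2 difference of each of the 15 probe sets, HMB minus Control, as points with 95% intervals from limma, n = 5 per group. The 3 Igf1 intervals are narrow and cross 0, and those of Bcl6, Igfbp1, Socs2 and the brighter Cish probe set are wide.

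The same animals recurred in several of these lists. HMB 2, 4 and 5 had the 3 highest Igfbp1 and Bcl6 values and the 3 lowest Socs2 values of all 10 animals, while HMB 3 had the lowest Igfbp1 value and the second lowest Bcl6 value of the 10. The SD in HMB was at least 2 times that in Control in 5 of the 15 probe sets, namely the dimmer Ghr, Igfals, Igfbp1, Socs2 and Stat5b, against 13.6% of all probe sets. The median SD of all probe sets was 0.164 in HMB and 0.160 in Control.

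Whether the genes varied together between animals fed alike was examined on deviations from the group means, over all 45 pairs of the 10 genes at their brightest probe sets. Igf1 with Igfals was the 1 pair that passed after adjustment by Pearson r, and 0 passed by Spearman rho. In each group the 5 animals stood in the same order for Igf1 and for Igfals, with HMB 1 highest and HMB 5 lowest in HMB, and Control 5 highest and Control 4 lowest in Control. Over the 10 animals r was 0.67 (exact two-sided permutation within groups, p = 6.94e-05, the smallest that 14400 assignments allow, adjusted p = 0.00313). Spearman rho was 0.75 (exact permutation p = 0.00292, adjusted p = 0.131), and r was 0.79 without the 2 animals farthest from the median Igf1 value. The range of Igf1 deviations was small, and the brightest Igf1 probe set also ran against the GAPDH 3' minus 5' signal at r = -0.58 and rho = -0.70 (exact permutation p = 0.013 and p = 0.0105, adjusted 0.195 and 0.157 over 60 relations), and at r = -0.89 without the 2 farthest. Igfals ran against that signal at r = -0.69 and rho = -0.68 (exact permutation p = 0.120 and p = 0.1275, adjusted 0.359 and 0.403). Without the 2 arrays farthest from the median Igfals value r was -0.55. The part of RNA integrity in the relation of Igf1 with Igfals was not tested.

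Of the other pairs, 5 had an unadjusted p under 0.05, each with an adjusted p of 0.293. Socs2 and Igfals ran together at r = 0.84 and rho = 0.83 (exact permutation p = 0.0251 and p = 0.0324), and Igfbp1 and Bcl6 at r = 0.84 and rho = 0.60 (exact permutation p = 0.0163 and p = 0.0936). Without the 2 animals farthest from the median of Igfals (HMB 4 and 5) the first fell to r = 0.42. Without the 2 farthest from the median of Igfbp1 (HMB 3 and 5) the second fell to r = 0.51. Leaving out extreme animals narrows the range, which can itself lower r. With single animals left out r ran from 0.74 to 0.94 for the first pair and from 0.57 to 0.93 for the second. The others were Igf1 with Socs2 (r = 0.45, rho = 0.67), Igfbp2 with Socs2 (r = -0.61, rho = -0.64) and Igf1 with Igfbp3 (r = -0.74, rho = -0.41), with exact permutation p of 0.0348, 0.0376 and 0.0391 for r. Without the 2 animals farthest from the median of the gene named first, r was 0.61, -0.72 and -0.22. Socs2 and Cish, both feedback inhibitors, did not rank alike (r = 0.066, rho = 0.13, exact permutation p = 0.891 and p = 0.703).

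**Figure D3:**
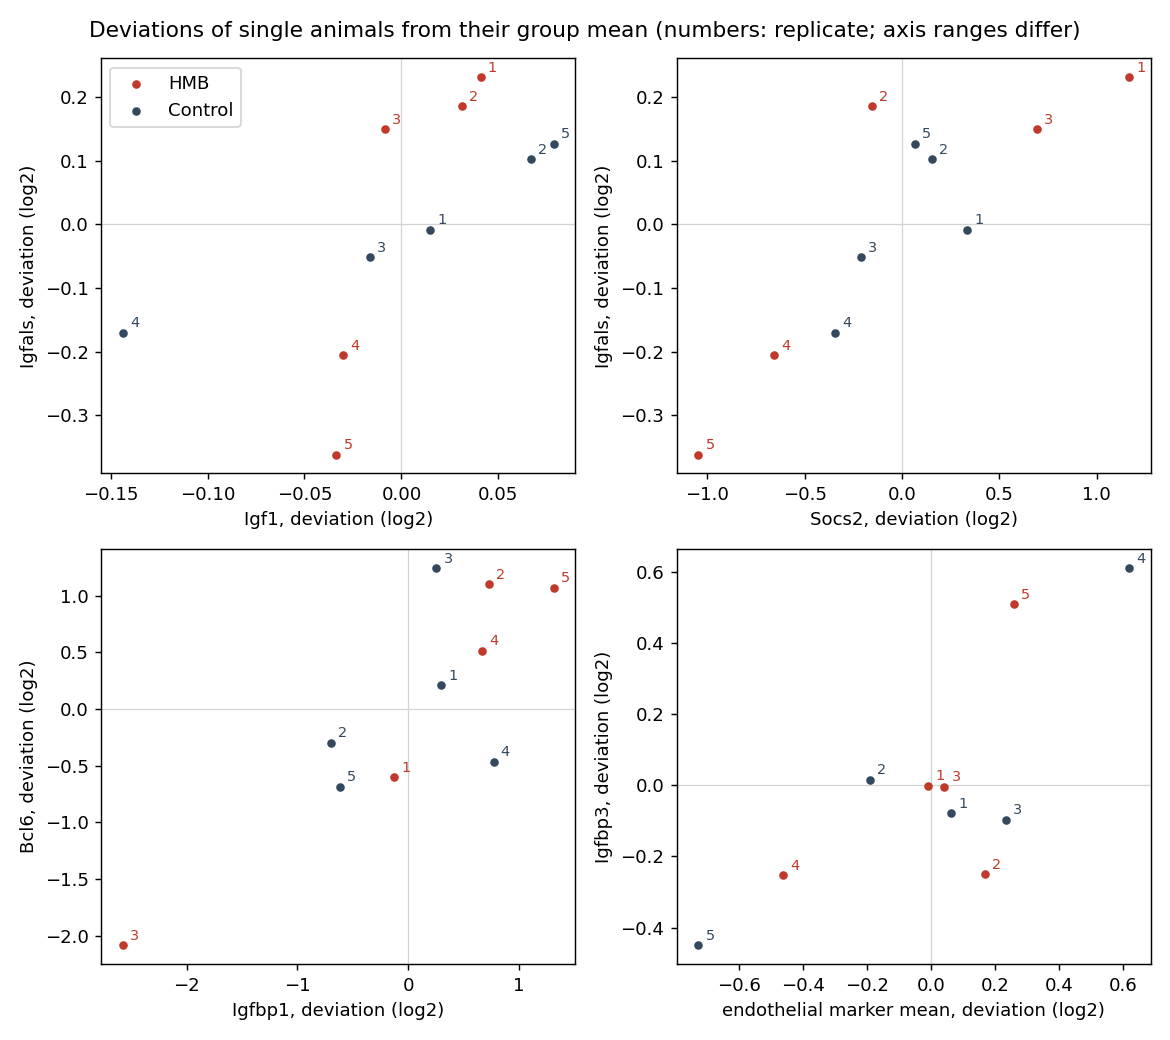
Deviation of each animal from its own group mean, in log2 units, for 3 pairs of genes and for Igfbp3 against the mean of the endothelial markers, with HMB animals in red, Control animals in blue and replicate numbers beside the points. Igf1 and Igfals keep the same order within each group, and the Igfbp1 and Bcl6 pair has HMB 3 far below the rest.

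Among 12129 other genes, the lowest 25% by mean signal left out, those whose deviations were most like Igfbp1 were Hlf (r = 0.94, rho = 0.83), Ccnd2 (r = 0.93, rho = 0.92) and C5h1orf216 (r = 0.93, rho = 0.88). Hlf, a transcription factor of the circadian output, read 7.46, 7.45, 6.63, 7.62 and 7.69 in HMB 1 to 5, against 7.80, 7.19, 7.52, 7.69 and 7.38 in Control 1 to 5. HMB 3 was lowest in Hlf as in Igfbp1.

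Most like Socs2 were Stx17 (r = 0.96, rho = 0.89), Atxn1l (r = 0.94, rho = 0.81) and Nampt (r = 0.93, rho = 0.81). Nampt, an enzyme of NAD synthesis, read 9.15, 8.31, 9.09, 7.68 and 7.28 in HMB 1 to 5, against 9.40, 9.56, 9.72, 9.14 and 9.55 in Control 1 to 5. HMB 4 and 5 were lowest, as in Socs2. Most like Igf1 were Cnr1 (r = 0.93, rho = 0.85), Rfx5 (r = 0.90, rho = 0.90) and Nkiras2 (r = 0.90, rho = 0.92). These are descriptions over 10 arrays of genes picked for the highest r. Cnr1 and Stx17 had low signals. Cnr1 lay between 3.44 and 3.78 in HMB and between 2.91 and 3.67 in Control. Stx17 lay between 3.87 and 4.71 in HMB and between 4.13 and 4.36 in Control.

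Other genes around the axis were counted in 6 lists, 1 probe set per gene, holding 95 genes besides the members. In all 0 rose and 2 fell, Stat3 and Onecut1, where 1.62% of all 14217 genes changed in either direction and 0.914% fell. The median log2 difference was -0.22 over the 10 members, -0.061 over the 95 genes and -0.018 over all genes.

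Of 15 other ligands, receptors and binding proteins of the hormones, 0 changed, and their median was 0.092. The 4 with the smallest p were Ghrhr, the receptor of the releasing hormone, at 0.40 (limma adjusted p = 0.0641), Stc1, a secreted inhibitor of the enzymes that cut IGF binding proteins, at 0.51 (0.0654), Pappa2, such an enzyme, at 0.36 (0.126), and Gh1, growth hormone itself, at 0.24 (0.15). Their means in Control lay between 3.53 and 4.53, where signals are low.

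Of 20 genes of JAK-STAT signalling, 1 fell and 19 did not pass, with a median of -0.13. Stat3, which carries cytokine signals to acute phase genes, had a median of 8.30 (from 8.03 to 8.58) in HMB and of 8.97 (from 8.59 to 9.04) in Control. It fell by 0.59 (limma adjusted p = 0.0379), and the groups did not overlap. Stat5a, the close relative of Stat5b, differed by 0.29 (limma adjusted p = 0.119), opposite in sign to Stat5b. Cbl, Pias1 and Socs5 differed by -0.32, -0.23 and -0.31 (limma adjusted p from 0.119 to 0.14). Jak2 differed by -0.18 (limma adjusted p = 0.417).

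Of 15 insulin and IGF receptor substrates and kinases 0 changed, with a median of -0.086. Grb10, an adaptor that restrains the insulin and IGF receptors, differed by -0.37 (limma adjusted p = 0.0663) and Pik3r1, the regulatory subunit of the kinase they recruit, by -0.79 (limma adjusted p = 0.0732). Foxo1, the transcription factor that binds the insulin response element of Igfbp1, differed by -0.28 (limma adjusted p = 0.23), and Irs1 by -0.22 (limma adjusted p = 0.276).

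Of 24 liver genes known in rat for dependence on the growth hormone pattern or on sex, 1 fell and 23 did not pass, with a median of 0.010. Onecut1, which encodes the growth hormone-regulated factor HNF6, had a median of 8.27 (from 6.24 to 9.32) in HMB and of 10.20 (from 9.15 to 10.37) in Control. By limma it fell by 1.99 (SE 0.45, adjusted p = 0.0479), with HMB 1 above the lowest control. Cyp2c11, the oxidase switched on by the male pulsatile pattern, averaged 13.23 ± 0.036 in HMB and 13.22 ± 0.013 in Control (SD, n = 5 each). Cyp2c12, favoured by the female continuous pattern, averaged 8.97 ± 0.56 in HMB and 10.11 ± 0.82 in Control (SD, n = 5 each), a difference of -1.14 ± 0.35 (SE, limma adjusted p = 0.0939). Cyp2d4, Mup5 and Cyp2a2 differed by 0.30, 0.17 and 0.13 (limma adjusted p of 0.182, 0.208 and 0.329).

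Of 12 genes that respond to fasting, insulin or amino acids 0 changed, with a median of -0.13. Fgf21, a fasting hormone, differed by -0.87 (limma adjusted p = 0.0788), Cpt1a, the gate of fatty acid oxidation, by 0.42 (0.18), Ddit4 by -0.53 (0.213) and Angptl4 by -0.38 (0.224). Of 10 liver transcription factors 0 changed, 9 were below 0 and the median was -0.24. Foxa3 differed by -0.75 (limma adjusted p = 0.0735), Cebpb by -0.39 (0.129), Cebpa by -0.49 (0.154) and Klf9 by -0.28 (0.31). The falls of Stat3 and Onecut1 both missed the threshold after cyclic loess, at -0.49 and -1.90 (limma adjusted p of 0.0682 and 0.0728). Both also missed it when any 1 of Control 2 to 5 or HMB 2 to 5 was left out, settings in which from 0.00% to 0.783% of all probe sets passed. With those animals left out Stat3 ran from -0.67 to -0.53 and Onecut1 from -2.21 to -1.55. With a poly-A covariate, where 0.00% of all probe sets passed, Stat3 was -0.65 and Onecut1 -1.04 (limma adjusted p of 0.241 and 0.445). Stat3 missed it with HMB 1 counted as a control, and Onecut1 with a trended robust prior.

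**Figure D4:**
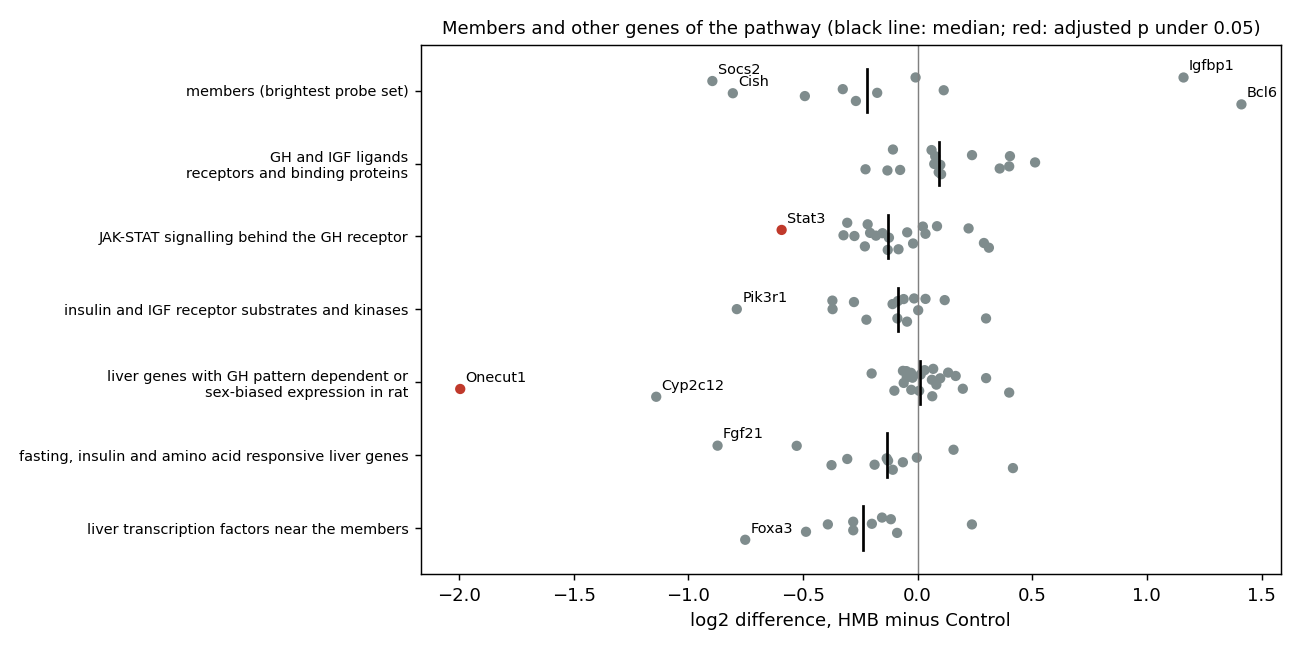
Log2 difference, HMB minus Control, of the 10 members at their brightest probe sets and of the genes of 6 lists, 1 point per gene (points are spread vertically for sight only), with the median of each list as a black line. Only Stat3 and Onecut1, in red, passed the adjusted p of 0.05.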

How the data were processed

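Values were the log2 signals that the authors deposited, made by RMA (version not given in the sources used here), as named in the submitters' processing notes. Detection calls, sex, cage, slide and date were not used here. Tests did not include 57 probe sets of Affymetrix controls. Of 31042 probe sets tested, 20826 had 1 gene symbol in the platform annotation, 436 several and 9780 none. Gene identifiers gave the current RefSeq symbols (assembly GRCr8). Lists used the probe set with the highest mean per gene.

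The fit was limma 3.58.1 in R 4.3.3 (lmFit, eBayes with the default prior, 8 residual and 4.93 prior degrees of freedom), HMB minus Control, with Benjamini-Hochberg adjustment over all probe sets and no filter. The fit was tested on simulated data. Correlations used exact permutations within groups (scipy 1.17.1). Figures used matplotlib 3.10.9 in Python 3.11.15. The number of arrays, 5 per group, limits the precision. Labels name separate animals, and replicate numbers follow deposition. Members and lists were chosen with earlier results of these data known. From each list the text names every gene past the threshold and up to 4 others with the smallest p, besides genes singled out after their values were seen (Jak2, Cyp2c11). Relations to markers and array measures were chosen after the data were seen. Alternatives were other normalizations, a filter on mean level, priors, weights, a stricter threshold, covariates and left-out animals.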

Additional observations from a re-analysis of the deposited data

Results flagged for a closer look

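Of 30 sets of 5 values (15 probe sets in each of 2 groups), 1 held an animal far from the rest of its group: the brighter Cish probe set read 6.54 in HMB 2, against 4.12 to 4.70 in the other 4 HMB animals, a gap of 0.761 of the whole range of the group. Chance alone marks about 1 in 20 such groups. The dimmer Cish probe set was also highest in HMB 2 among HMB animals.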

How the results depend on the processing

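The number of member probe sets changed by HMB, 0 of 15, was 1 with HMB 1 moved to Control, as its dose label reads (Socs2), and 3 with HMB 1 and 2 left out (Ghr, Socs2 and Stat5b). With single animals left out it was 0 to 1, namely Socs2 without HMB 1 and Igfbp1 without HMB 3. It was 0 in the other settings, with 0 to 5 at an unadjusted p under 0.05. Of other genes in the lists, 2 changed as deposited (Stat3 and Onecut1). The count was 0 after cyclic loess, after quantile normalization, at an adjusted p of 0.01, with a poly-A covariate and with HMB 3 to 5 left out, 1 (Stat3) with a trended robust prior or with adjustment over genes, and 4 with HMB 1 and 2 left out. It ran from 0 to 7 with single animals left out, at 7 without Control 1, where 5.33% of all probe sets passed. It was 0 without Control 2, 3, 4 or 5 or HMB 2, 3, 4 or 5. Of all 31042 probe sets, 0 passed without Control 2, 4 or 5 or HMB 4, 1 without Control 3 or HMB 5, 65 without HMB 2 and 243 without HMB 3. Of 45 pairs of members 1 passed by Pearson r and 0 by Spearman rank. Leaving out single animals, chosen after the data were seen, gave 0 to 1, with 0 without Control 2, 4 or 5.

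Some signs turned. The dimmer Cish probe set was at -0.082 after cyclic loess, -0.088 after quantile normalization, -0.016 at equal medians, -0.15 without HMB 1 and 2, and -0.13 to 0.13 with single animals left out. The dimmest Igf1 probe set was at -0.0039 at equal medians, -0.0035 without HMB 1 and 2, and -0.044 to 0.073 with single animals left out. The brightest Igf1 probe set was at 0.037 with the poly-A covariate, 0.027 without HMB 3 to 5, and -0.045 to 0.011 with single animals left out, and the Igf1 probe set of middle signal was at 0.082 with the poly-A covariate and at 0.055 without HMB 3 to 5. With the poly-A covariate the dimmer Ghr probe set (-0.29 as deposited) was at 0.25 and the brighter Cish probe set (-0.81 as deposited) at 0.53, and without HMB 3 to 5 the dimmer Ghr probe set was at 0.23. The cause was not tested. No paired analysis was possible because replicate numbers follow deposition and pair no animals.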
